A study of Mus musculus with 19 samples.

Results

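The comparison described here is a difference of differences: the response of the striatum to amphetamine in mice with a prefrontal knockout of the dopamine D2 receptor, minus the response in control mice. Its members are the gene counts of 19 mice, which are all 19 libraries of the series, over all 49592 genes, of which 21513 had enough counts to be tested. The animals were male D2RCre_floxCas9-EGFP mice, 4 months old. Both genotypes therefore carried Cre driven by the D2 receptor gene and Cre-dependent Cas9 with EGFP. The knockout group (PFC_D2R-KO) received AAV5 D2R-sgRNA in the medial prefrontal cortex (mPFC), and the control group received AAV5 syn-mCherry there. Saline was given on 5 days starting 3 weeks after the virus, and on day 9 each mouse had 1 i.p. injection of either amphetamine (3 mg/kg) or saline. A locomotion period of 30 min is also recorded for every mouse. The labels put tissue collection 90 min after amphetamine and give no separate time for saline. There were 5 saline control, 5 amphetamine control, 5 saline knockout and 4 amphetamine knockout mice, and the mice of each group are numbered from 1 here. The knockout amphetamine mouse numbered 7 in the submitters' scheme was not analysed here.

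Amphetamine releases dopamine from the axons that reach the striatum. Dopamine acts there on 2 families of G protein-coupled receptors: D1 receptors raise cyclic AMP in projection neurons of the direct pathway, and D2 receptors lower it in those of the indirect pathway and in cholinergic interneurons. Prefrontal neurons send glutamatergic axons to the same cells. The series names cholinergic interneurons in its title, and the difference of responses asks whether the drug acts differently on striatal transcripts when prefrontal D2 receptors are edited.

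Library totals ran from 57003408 to 85536346 counts. Levels are given as CPM (the library's counts scaled to a common total by TMM). Before the TMM factor, 1 CPM came to about 57 counts in the smallest library. The tissue label was checked against 16 markers of striatal projection neurons, whose summed level was 3344 CPM in the lowest and 10267 CPM in the highest mouse. Markers of neighbouring tissue were also present and uneven. Amphetamine knockout mouse 3 had the lowest mean log2 CPM of the striatal projection neuron markers, followed by saline knockout mouse 4 and amphetamine knockout mouse 2. The latter also carried choroid plexus transcripts at a level seen in no other mouse. Saline control mouse 5 and saline knockout mouse 1 stood high in glucocorticoid-induced genes, and saline knockout mouse 3 stood high in ribosomal protein genes. On principal components 5 mice were taken to stand apart: saline control mouse 5, amphetamine control mouse 3, saline knockout mouse 3, and amphetamine knockout mice 2 and 3. No fixed cut-off set this choice. Amphetamine control mouse 2, at -33.8 on component 1 against 34.1 for amphetamine knockout mouse 2, was not among them.

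No gene passed the test. Of 21513 genes, edgeR called 0 (0%) at an adjusted p under 0.05, and the smallest adjusted p was 0.451. At an unadjusted p under 0.05 there were 1991 genes (9.25%), of which 1119 (5.2%) had a higher and 872 (4.05%) a lower response in the knockout mice. The limma voom fit also called 0, with 1953 genes (9.08%) under 0.05 unadjusted. DESeq2 called 14 of 19146, of which 12 (0.0627%) were higher and 2 (0.0104%) lower. Of the 37985 genes for which DESeq2 gave a p, 2437 (6.42%) were under 0.05 unadjusted. The names that follow are therefore ordered by p and not by a call, except where DESeq2 is named.

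Among the genes with the smallest p, responses of opposite sign in the 2 genotypes were commoner than responses of the same sign. Among the 1119 genes with a higher response in knockout mice, 1011 had a negative response in control mice and a positive one in knockout mice, 45 were positive in both and 63 negative in both. Among the 872 with a lower response, 784 were positive in control and negative in knockout mice, 33 were positive in both and 55 negative in both. The rule that picks large differences favours opposite signs, so these counts are a description. Over all 21513 genes, 5347 were positive in both genotypes, 5932 negative in both, 5177 negative only in control and 5057 negative only in knockout mice. The 2 responses share no mice, and across genes, which are not independent replicates, they correlated with a Pearson r of 0.12 and a Spearman rho of 0.0919.

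Drd2 (ENSMUSG00000032259.9, chromosome 9, 49251927 to 49319477 on GRCm39), the gene that the guide RNAs target, was measured in the striatum, where no virus was placed, so its level does not check the knockout. Drd2 stood at 154, 145, 144, 95.6 and 85.3 CPM in saline control mice 1 to 5 and at 182, 151, 141, 190.2 and 199.98 CPM in amphetamine control mice. In the knockout mice it stood at 96.9, 111, 116, 76.9 and 126 CPM after saline and 113, 73.5, 34.1 and 121 CPM after amphetamine. All 4 amphetamine knockout mice lay below all 5 amphetamine control mice, and mice 2 and 3 lay far below mice 1 and 4. The Drd2 response was 0.47 in control and -0.30 in knockout mice on the log2 scale, a difference of -0.77 ± 0.373 (SE) with an edgeR adjusted p of 0.541. Without amphetamine knockout mice 2 and 3 the difference was -0.31.

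Among the 12 genes with the smallest p and a higher response in knockout mice, several encode parts of the extracellular matrix or of the cell surface that holds it. These are Col6a2 and Col13a1, chains of collagen VI and of the transmembrane collagen XIII, Tnxb, the matrix glycoprotein tenascin X, Tsku, a secreted leucine-rich proteoglycan, and Mxra8, a membrane protein linked to matrix remodelling. The others were Zfp185, an actin-associated LIM protein, Nrbp2, a pseudokinase, Spaca6, known from sperm-egg fusion, Ap1g2, a subunit of the AP-1 clathrin adaptor, Crocc2, related to the ciliary rootlet protein, Ttc28, a protein of tetratricopeptide repeats, and Snapc4, a subunit of the complex that starts small nuclear RNA genes. Their differences ran from 0.49 for Nrbp2 to 1.93 for Zfp185. In all 12 the response was negative in control and positive in knockout mice.

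Col6a2 (ENSMUSG00000020241.14, chromosome 10, 76431596 to 76459464) had the smallest p of all genes. It stood at 11.8, 13.3, 14.8, 12.1 and 13.6 CPM in saline control and 12.4, 12.3, 13.8, 11.9 and 12.5 CPM in amphetamine control mice. In knockout mice it stood at 9.39, 10.9, 7.38, 8.60 and 10.4 CPM after saline and 14.8, 14.3, 18.1 and 15.1 CPM after amphetamine. Every amphetamine knockout mouse lay above every saline knockout mouse, while the control groups overlapped. The saline knockout mice lay below all control mice. The response was -0.059 in control and 0.74 in knockout mice, where it rose by the edgeR test with an adjusted p of 0.0217 as the 1 gene called (0.00465%). The difference of 0.80 ± 0.148 (SE) had an adjusted p of 0.451 by edgeR and 0.00281 by DESeq2. Part of it lies between the saline groups, where knockout mice were at -0.49 against control mice on the log2 scale, and part between the amphetamine groups, at 0.31.

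Zfp185 (chromosome X, 72030945 to 72075149) had the second smallest p. Control mice stood at 1.21, 1.44, 1.35, 1.46 and 2.49 CPM after saline and 0.811, 0.586, 1.09, 0.542 and 0.642 CPM after amphetamine, without overlap. Knockout mice stood at 1.59, 0.867, 0.777, 0.990 and 0.900 CPM after saline and 1.91, 2.22, 1.995 and 1.08 CPM after amphetamine, with saline mouse 1 inside the amphetamine range. The difference was 1.93 ± 0.372 (adjusted p = 0.451 by edgeR and 0.00281 by DESeq2).

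Spaca6 (chromosome 17, 18047420 to 18063271) showed no overlap between the knockout groups, and its saline knockout mice also lay below the saline control mice. It stood at 6.98, 7.59, 7.82, 8.70 and 8.66 CPM in saline and 10.9, 14.8, 10.3 and 11.9 CPM in amphetamine knockout mice, against 12.01, 9.91, 13.2, 10.7 and 11.9 CPM and 8.71, 12.1, 10.7, 10.4 and 10.8 CPM in the corresponding control mice, and its difference was 0.72 ± 0.162. The next gene on the chromosome, Has1 (chromosome 17, 18063585 to 18075450), which encodes a hyaluronan synthase, had a difference of the opposite sign, -1.12 ± 0.326. In knockout mice Has1 stood at 1.75, 1.51, 2.55, 1.54 and 1.39 CPM after saline and 1.45, 0.995, 1.14 and 1.60 CPM after amphetamine, so it was low throughout. Both had an edgeR adjusted p of 0.519.

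Nrbp2 and Snapc4 were more abundant and varied less. Nrbp2 stood at 65.9, 73.7, 65.4, 78.9 and 77.7 CPM in saline and 89.2, 101, 98.7 and 89.5 CPM in amphetamine knockout mice, with group means of 84.9 ± 5.997 CPM and 78.9 ± 5.74 CPM (SD, n = 5 each) in saline and amphetamine control mice. Snapc4 stood at 22.4, 22.1, 17.3, 23.2 and 24.6 CPM and 29.04, 33.2, 29.8 and 29.6 CPM in the knockout groups, with control means of 28.02 ± 2.26 CPM and 26.4 ± 2.77 CPM (SD, n = 5 each). For both genes the amphetamine knockout mice lay above all saline knockout and all amphetamine control mice. The differences were 0.49 ± 0.107 and 0.56 ± 0.133, each with an adjusted p of 0.519 by edgeR. DESeq2 called Nrbp2 (adjusted p = 0.0301) but not Snapc4.

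**Figure D1:**
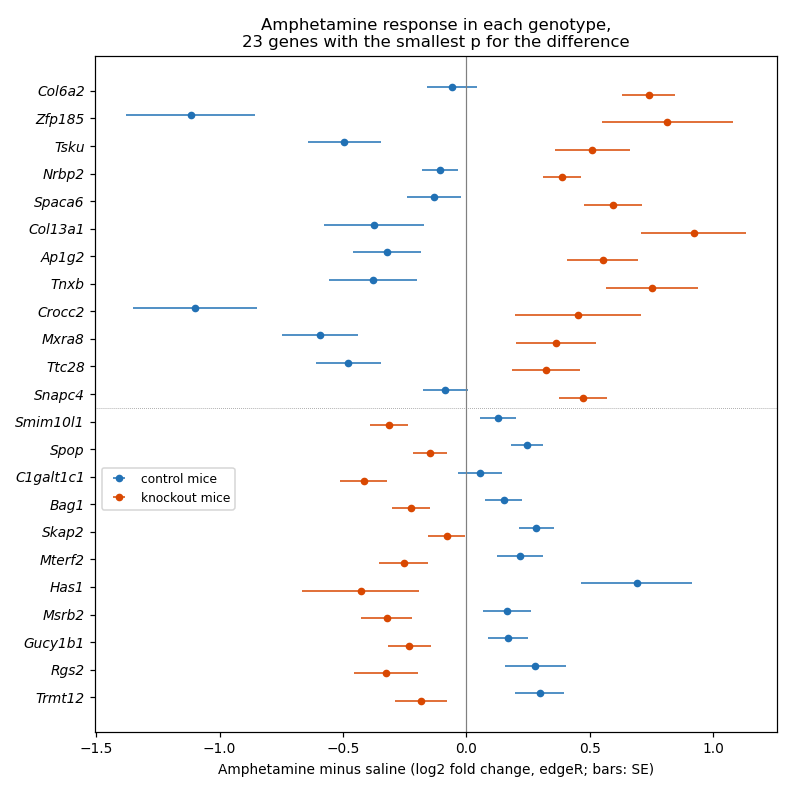
Amphetamine response (log2 fold change against saline, x axis) of 23 genes (those with the smallest p for the difference in each direction and a mean of at least 1 CPM), in control mice (blue, 5 against 5) and knockout mice (red, 4 against 5); bars are standard errors. In the 12 upper genes the red point lies right of 0 and the blue point left of it, as for Zfp185 at 0.81 and -1.12, and in the 11 lower genes the order is turned.

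The 12 genes with the smallest p and a lower response in knockout mice had differences from -1.12 for Has1 to -0.36 for Skap2. In all 12 the response was positive in control and negative in knockout mice. Spop, the substrate adaptor of a cullin-3 ubiquitin ligase, and Smim10l1, a small membrane protein, were the pair that DESeq2 called, with adjusted p of 0.0301 and 0.0394. Others with a role in protein or carbohydrate handling were C1galt1c1, the chaperone of an O-glycan transferase, and Bag1, a co-chaperone of Hsp70. Msrb2 and Mterf2 act in mitochondria, as a methionine sulfoxide reductase and a member of the transcription termination factor family, and Trmt12 modifies transfer RNA. Rgs2, which shortens Gq signals, and Gucy1b1, a subunit of the nitric oxide receptor guanylate cyclase, belong to signalling pathways of striatal neurons. Skap2 is an adaptor of Src kinases.

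Spop (chromosome 11, 95304906 to 95384232) stood at 246, 251, 233, 243 and 245 CPM in saline and 313, 283, 296, 274 and 277 CPM in amphetamine control mice, which did not overlap. Knockout mice stood at 272, 273, 286, 233 and 245 CPM after saline and 238, 222, 230.1 and 255 CPM after amphetamine, which did. The difference was -0.39 ± 0.0966, with an edgeR adjusted p of 0.519.

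Smim10l1 (chromosome 6, 133081872 to 133087862) had its separation in the other genotype. It stood at 205, 175, 203, 172 and 179 CPM in saline and 163, 148, 139.6 and 151 CPM in amphetamine knockout mice, with every amphetamine mouse below every saline mouse. The saline control mice stood at 164, 164, 165, 164 and 164 CPM and the amphetamine control mice at 201, 192, 168, 163 and 172 CPM. The difference was -0.44 ± 0.105.

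Rgs2 stood at 137, 148, 127, 112 and 89.4 CPM in saline control, 163, 136, 132, 153 and 161 CPM in amphetamine control, 139, 146, 193, 130.1 and 137 CPM in saline knockout and 128, 111, 107 and 129 CPM in amphetamine knockout mice. The amphetamine knockout mice lay below both the saline knockout and the amphetamine control mice, and the difference was -0.60 ± 0.179 (adjusted p = 0.519 by edgeR). Saline knockout mouse 3 stood above the rest of its group for Rgs2, and without it the difference was -0.49. C1galt1c1 stood at 29.7, 27.1, 36.3, 27.2 and 26.5 CPM in saline and 22.7, 20.6, 22.5 and 22.2 CPM in amphetamine knockout mice, again without overlap, and had a difference of -0.47 ± 0.130.

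Several leading genes moved toward 0 without the 5 mice apart on principal components. Among those higher in knockout mice Crocc2 went from 1.55 to 1.02 and Ttc28 from 0.80 to 0.52. Among those lower, Has1 stood at -0.58, Rgs2 at -0.33, C1galt1c1 at -0.29, Mterf2 at -0.27, Msrb2 at -0.25, Gucy1b1 at -0.22 and Bag1 at -0.19 in that setting, with -0.47 for Mterf2, -0.49 for Msrb2, -0.40 for Gucy1b1 and -0.37 for Bag1 with all mice.

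**Figure D2:**
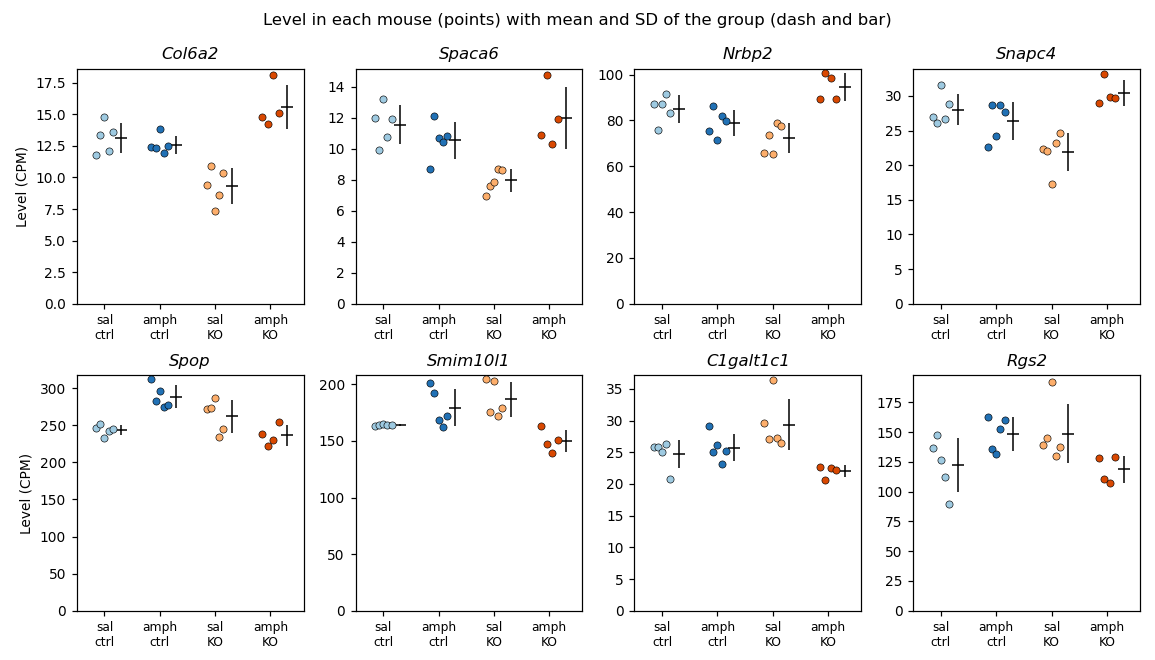
Level in CPM (y axis, from 0) of 8 genes in each mouse (points) for the groups saline control, amphetamine control, saline knockout and amphetamine knockout; the dash and bar are the mean and SD. Col6a2, Spaca6, Nrbp2 and Snapc4 separate the amphetamine from the saline knockout mice, with Col6a2 at 15.6 ± 1.71 against 9.33 ± 1.41 CPM, and Smim10l1, C1galt1c1 and Rgs2 separate them in the other direction. The genes drawn were picked from those with the smallest p, which favours separation. The knockout groups overlapped for Spop and, among genes not drawn, for Zfp185, Tsku, Crocc2, Mxra8, Ttc28, Bag1, Skap2, Mterf2, Has1, Gucy1b1 and Trmt12.

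Genes of meningeal and vascular fibroblasts, the cells that lay down collagen around vessels and under the skull, had higher responses in knockout mice throughout the list. All 15 of 15 members had a difference above 0, 9 of them with an unadjusted p under 0.05 and 0 called, with a median of 0.96 against 0.0064 over all genes tested. For comparison, 50.9% of all genes lay above 0 and 5.2% were higher at that p. The median response was -0.38 in control and 0.74 in knockout mice. The list's median of knockout minus control was -0.49 after saline and 0.53 after amphetamine. Col6a2 is itself a member of the list.

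Dcn, the small proteoglycan decorin, stood at 11.9, 14.1, 16.9, 21.5 and 34.5 CPM in saline and 17.5, 7.70, 27.1, 9.32 and 14.999 CPM in amphetamine control mice. It stood at 17.1, 16.9, 11.5, 16.8 and 10.6 CPM in saline and 28.8, 30.1, 68.8 and 17.8 CPM in amphetamine knockout mice, which did not overlap, and its difference was 1.69 ± 0.548. Aebp1, a collagen-binding protein, and Col1a2, a chain of collagen I, also separated the knockout groups, with differences of 1.23 ± 0.390 and 0.96 ± 0.315. Without amphetamine knockout mice 2 and 3 that of Dcn was 1.05. Each of these 3 genes had an edgeR adjusted p of 0.519.

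The summed level of the 15 fibroblast genes was 212 to 316 CPM in saline control, 147 to 305 CPM in amphetamine control, 116 to 210.4 CPM in saline knockout and 253 to 309 CPM in amphetamine knockout mice. Every amphetamine knockout mouse thus lay above every saline knockout mouse but within the range of the saline control mice, and no member was at 0 in any mouse. The median difference was 0.84 to 1.41 on leaving out single mice, and 0.96 without amphetamine knockout mice 2 and 3. With the choroid plexus and fibroblast levels as covariates Col6a2 stood at 0.64, Zfp185 at 0.97 and Tnxb at 0.36, against 0.80, 1.93 and 1.13 without them. Col6a2 belongs to the list that made the covariate.

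Collagen chains were grouped after their values had been seen, so they carry no test. Of 44 chains tested 42 (95.5%, against 50.9% of all genes) had a difference above 0. The median difference was 0.53, with median responses of -0.25 in control and 0.31 in knockout mice. Their median of knockout minus control was -0.36 after saline and 0.25 after amphetamine. Col1a1, Col1a2, Col3a1, Col6a1, Col6a2 and Col6a3 also belong to the fibroblast list, so the counts are not separate. The largest differences were those of Col13a1, Col4a6 and Col8a2. Col4a6, a basement membrane chain, stood at 1.30 ± 0.354, and Col8a2, a short-chain collagen, stood at 1.18 ± 0.305. Fkbp10, a prolyl isomerase that folds collagen in the endoplasmic reticulum, was 1 of the 14 genes that DESeq2 called (adjusted p = 0.0301) and was likewise named after its values were seen. It stood at 5.12, 5.72, 6.48, 6.19 and 5.42 CPM in saline and 7.24, 7.93, 6.70 and 6.98 CPM in amphetamine knockout mice, without overlap, and its difference by edgeR was 0.65 ± 0.157. Col6a4, at -0.82 ± 0.428, and Col11a2, at -0.061 ± 0.254, were the pair below 0.

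Choroid plexus genes, which belong to the epithelium that makes cerebrospinal fluid, had the largest median difference of the 36 lists, 1.32, and this rested on 1 mouse. Of 13 members 12 lay above 0, 6 of them with an unadjusted p under 0.05. F5, a coagulation factor, stood at 0.828, 5.96, 0.5999 and 0.715 CPM in amphetamine knockout mice 1 to 4 and at 0.787, 0.654, 0.402, 0.610 and 0.574 CPM in saline knockout mice. Folr1, a folate receptor of this epithelium, stood at 0.323, 3.70, 0.586 and 0.243 CPM in the same amphetamine mice. Mouse 2 was high in both genes, and the others of its group lay close to the saline knockout mice. Ttr, the main secreted protein of the choroid plexus and named after its values were seen, stood at 596 CPM in that mouse and at most 24.5 CPM in any other. The list's summed level was 205 to 282, 209.5 to 268, 204 to 286 and 197 to 1137 CPM in saline control, amphetamine control, saline knockout and amphetamine knockout mice, with no member at 0 in any mouse. Without mouse 2 the median difference was 0.20, and the differences of F5 and Folr1 were 0.20 and 0.61, against 1.70 and 2.27 with all mice. Kcnj13, a potassium channel of the epithelium, kept a difference of 1.69 without it, against 2.12 ± 0.638 with all mice.

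Ependymal genes, which build the motile cilia lining the ventricle, had 14 of 14 members above 0, 4 of them under an unadjusted p of 0.05, and a median of 0.38. In control mice their median response was -0.67, and in knockout mice -0.20. Tekt1, a protein of ciliary microtubules, stood at 3.14, 2.601, 2.50, 3.08 and 3.17 CPM in saline and 1.62, 1.25, 0.978, 1.55 and 1.96 CPM in amphetamine control mice, without overlap. Knockout mice stood at 2.56, 2.72, 3.39, 3.63 and 2.28 CPM after saline and 2.28, 3.84, 3.07 and 1.86 CPM after amphetamine, where the groups overlapped, and the difference was 0.90 ± 0.292. Tmem212, Spag16 and Cfap126, also of cilia, had differences of 0.99, 0.92 and 0.73. The list's summed level was 53.04 to 78.7, 24.9 to 48.4, 42.1 to 83.7 and 43.7 to 70.9 CPM in the 4 groups, in the order used for the choroid plexus genes. Its median difference was 0.22 without amphetamine control mouse 3 and 0.13 without amphetamine knockout mice 2 and 3, where Tekt1 stood at 0.49, Spag16 at 0.52 and Cfap126 at 0.25.

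Genes of the projection neurons, the inhibitory cells that carry the output of the striatum, pointed the other way. All 16 of 16 members had a lower response in knockout mice, 7 of them with an unadjusted p under 0.05 and 0 called, with a median of -0.61. Over all genes 49.1% lay below 0 and 4.05% were lower at that p. The median response was 0.44 in control mice, with 16 of 16 positive, and -0.16 in knockout mice, with 14 of 16 negative. In bulk tissue, fewer cells of a type and less RNA per cell cannot be told apart. Of the markers of the direct pathway 8 of 9 lay below 0, with a median of -0.46, and of those of the indirect pathway 7 of 8, with a median of -0.73. The lists share genes with each other, so their counts are not separate.

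Ppp1r1b, the dopamine- and cyclic AMP-regulated phosphatase inhibitor DARPP-32, stood at 849, 866, 846, 629 and 764 CPM in saline and 1119.7, 955, 1035, 1204 and 1240.2 CPM in amphetamine control mice, which did not overlap. In knockout mice it stood at 791, 775, 1191, 456 and 831 CPM after saline and 781, 579, 288 and 943 CPM after amphetamine. These groups overlapped, with amphetamine knockout mouse 3 the lowest of its group, and all 4 amphetamine knockout mice lay below the amphetamine control mice. The difference was -0.81 ± 0.354 (adjusted p = 0.524 by edgeR). Rasd2, a small G protein, and Arpp21, a cyclic AMP-regulated phosphoprotein, had differences of -0.72 and -0.58. Those of Ppp1r1b, Rasd2 and Arpp21 were -0.39, -0.29 and -0.37 without amphetamine knockout mice 2 and 3.

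The list's mean log2 CPM was 8.39, 7.77, 7.28 and 8.55 in amphetamine knockout mice 1 to 4. It was 7.70 in saline knockout mouse 4 and between 8.26 and 8.42 in the other 4 of that group. Without amphetamine knockout mouse 3 the median difference was -0.40, without mice 2 and 3 it was -0.21, and without the 5 mice apart on principal components it was -0.14. The indirect-pathway median was -0.33 and -0.17 in the latter settings. Mouse 3 also had the highest cortical projection neuron level of all 19, at 6.10 mean log2 CPM, and mouse 2 the second lowest, at 4.05. With ependymal, cortical and pallidal-septal levels as covariates the striatal median was -0.45, and with choroid plexus and fibroblast levels -0.13.

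**Figure D3:**
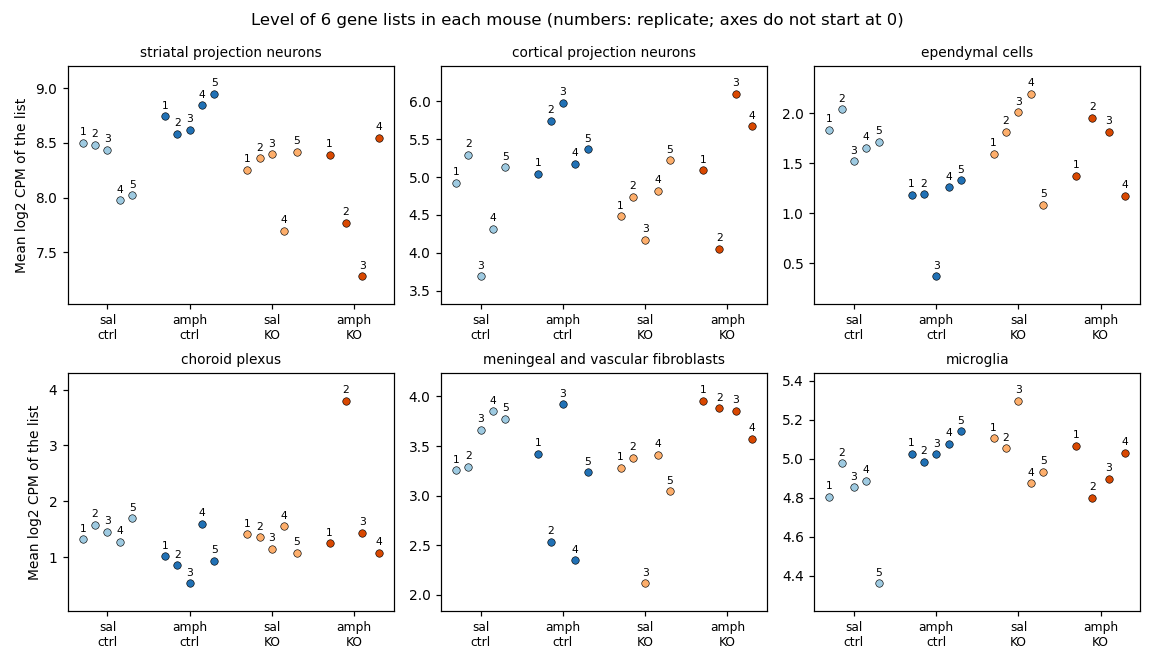
Mean log2 CPM of 6 gene lists (y axes, which do not start at 0) in each mouse, with the mouse's number beside its point, for the 4 groups. Amphetamine knockout mice 2 and 3 are low in striatal projection neuron genes (7.77 and 7.28), mouse 2 alone is high in choroid plexus genes (3.80), and all 4 amphetamine knockout mice are above the saline knockout mice in fibroblast genes.

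Receptors come first in the dopamine pathway. Drd1, the receptor gene of the direct pathway, stood at 172, 164, 178, 117 and 122 CPM in saline and 217, 179, 189, 214 and 233 CPM in amphetamine control mice. It stood at 165, 165, 181, 104 and 163 CPM in saline and 163, 97.8, 53.7 and 162 CPM in amphetamine knockout mice, with mice 2 and 3 low again. Its difference was -0.84 ± 0.333 (adjusted p = 0.519 by edgeR). Adora2a, the adenosine receptor that opposes D2 signalling in the indirect pathway, had a difference of -0.96 ± 0.430, and the orphan receptors Gpr6 and Gpr52 of the same cells -0.79 ± 0.298 and -0.78 ± 0.297. Without mice 2 and 3 the differences were -0.38 for Drd1, -0.46 for Adora2a, -0.40 for Gpr6 and -0.45 for Gpr52.

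Over the 21 genes of dopamine receptors and their transduction, 18 lay below 0, 7 with an unadjusted p under 0.05, and the median was -0.49. Median responses were 0.29 in control and -0.17 in knockout mice. Downstream of the receptors, Gnb5, the G protein subunit that pairs with Rgs9, stood at -0.52, and Prkar2b, a regulatory subunit of protein kinase A, at -0.44. Rgs4, which shortens Gi and Gq signals, stood at -0.69. Without amphetamine knockout mice 2 and 3 the median was -0.15, with Gnb5 at -0.34, Prkar2b at -0.25 and Rgs4 at -0.38. Genes of dopamine synthesis, storage and uptake had a median of 0.11 over 8 genes.

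Neuropeptide precursors had no common direction. Tac1, the substance P precursor of the direct pathway, stood at 302, 251, 354, 172 and 229 CPM in saline and 220.01, 144, 68.98 and 206 CPM in amphetamine knockout mice, and its difference was -0.95 ± 0.345. Pdyn, the dynorphin precursor, had one of -0.53 ± 0.305. Without amphetamine knockout mice 2 and 3 that of Tac1 was -0.53 and that of Pdyn -0.18, and without mouse 3 alone that of Pdyn was -0.30. Sst, somatostatin of an interneuron class, had a response of 0.33 in control and -0.023 in knockout mice and a difference of -0.35 ± 0.148. Crh, the corticotropin-releasing hormone precursor, had a negative response in both, -0.29 and -0.65, with every amphetamine knockout mouse below every saline knockout mouse. Of 19 neuropeptide precursors 9 lay above and 10 below 0, with a median of -0.065.

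**Figure D4:**
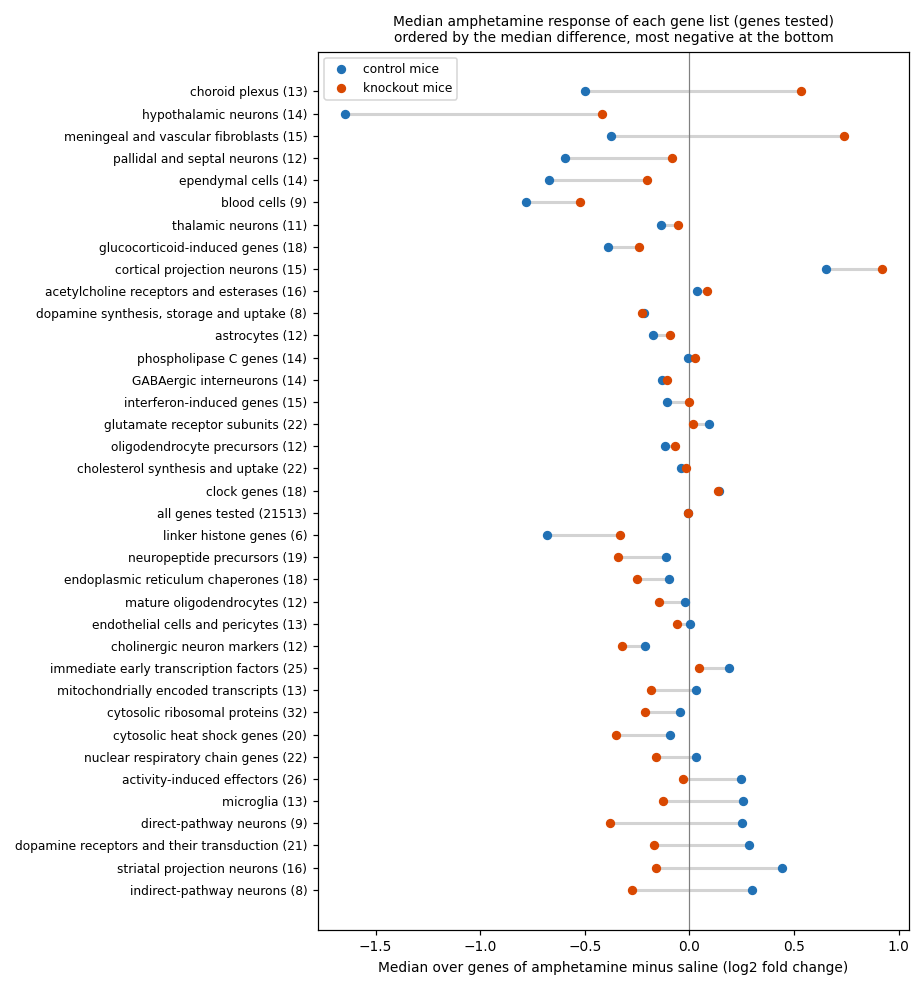
Median amphetamine response (log2, x axis) over the tested genes of each of 36 lists and over all genes, in control (blue) and knockout mice (red), ordered by the median difference, with the number of genes in brackets. Choroid plexus and fibroblast genes lie left of 0 in control and right of 0 in knockout mice, striatal projection neuron genes lie the other way (0.44 and -0.16), and clock genes coincide.

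Markers of cholinergic interneurons, the cells named in the title of the series, showed no difference that could be told from the spread. Chat, which makes acetylcholine, stood at 21.97, 11.1, 22.4, 24.9 and 16.9 CPM in saline control, 18.9, 17.3, 9.85, 24.1 and 18.7 CPM in amphetamine control, 19.6, 20.04, 18.1, 19.9 and 18.4 CPM in saline knockout and 20.4, 24.8, 3.71 and 17.99 CPM in amphetamine knockout mice. All groups overlapped, and amphetamine knockout mouse 3 had the lowest value of all. The difference was -0.069 ± 0.491, an error wide enough to leave a sizeable difference in either direction undetected, and it was 0.26 without that mouse. Slc18a3, the vesicular transporter, lies within the Chat locus (chromosome 14, 32184395 to 32186807, against chromosome 14, 32130160 to 32187946), so reads can be shared. It had a difference of -0.25 ± 0.454, and Slc5a7, the choline transporter, one of -0.20 ± 0.413. Both turned to above 0 without mouse 3, at 0.045 and 0.11.

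Of 12 cholinergic markers 4 lay above and 8 below 0, 0 under an unadjusted p of 0.05, with a median of -0.15 that was 0.12 without mouse 3. Other settings moved the median the other way. It was -0.33 without amphetamine knockout mouse 2 and -0.43 with ependymal, cortical and pallidal-septal levels as covariates. With those covariates Chat stood at -0.46, Slc18a3 at -0.56 and Slc5a7 at -0.49. The median response was negative in both genotypes, -0.21 in control and -0.32 in knockout mice. Acetylcholine receptors and esterases, 16 genes, had a median difference of 0.13, with 11 above 0 and 1 under an unadjusted p of 0.05.

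Immediate early genes are transcribed within minutes of neuronal firing. They were read here only at 90 min after amphetamine, with no time given for saline, so an earlier, shorter rise would be missed. Fos stood at 40.5, 56.6, 40.5, 39.6 and 31.1 CPM in saline and 34.997, 43.9, 42.4, 53.2 and 37.9 CPM in amphetamine control mice, and at 36.3, 29.9, 43.9, 38.5 and 40.8 CPM and 48.9, 28.6, 29.8 and 47.9 CPM in saline and amphetamine knockout mice. The groups overlapped throughout, and the difference was 0.00707 ± 0.246 (adjusted p = 0.994 by edgeR). The Fos difference was 0.33 without amphetamine knockout mice 2 and 3 and 0.47 without the 5 mice apart. Npas4, Egr1 and Arc, which follow calcium entry and synaptic input, had differences of -0.12 ± 0.325, -0.16 ± 0.293 and -0.23 ± 0.406, none called. In amphetamine knockout mice Egr1 stood at 172, 89.7, 107 and 204 CPM and Arc at 113, 53.8, 59.6 and 132 CPM, so mice 2 and 3 were the low ones here too. Without these mice the differences turned to 0.24, 0.24 and 0.23.

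Over 25 early transcription factors 6 lay above and 19 below 0, 1 of them under an unadjusted p of 0.05, with a median of -0.16. That 1 was Ier5, with a difference of -0.63 ± 0.233 and no overlap between the amphetamine groups, at 60.5, 57.7, 54.5, 49.8 and 49.7 CPM in control and 39.6, 25.1, 26.7 and 42.1 CPM in knockout mice. Junb, Btg2 and Crem stood at -0.36, -0.24 and -0.25. Without amphetamine knockout mouse 2 Junb and Btg2 stood at -0.22 and -0.15. Without mice 2 and 3 they stood at -0.054 and -0.018, and Ier5 at -0.33. The median of the list was 0.00752 without amphetamine knockout mouse 2 and 0.16 without mice 2 and 3. Activity-induced effectors, 26 genes, had a median of -0.21, which was -0.033 without both. Spry2 and Spred1, inhibitors of the Ras pathway, stood at -0.39 and -0.21, the former at -0.15 without mice 2 and 3 and the latter at -0.14 without saline knockout mouse 1. Ptgs2, cyclooxygenase 2, stood at -0.83, or -0.32 without saline knockout mouse 1, in which it was 14.96 CPM.

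The median response of chaperone genes was negative in both genotypes and further from 0 in knockout mice. Of 20 heat shock genes, which help proteins fold, 17 had a difference below 0, 5 of them under an unadjusted p of 0.05 and 0 called, with a median of -0.19. Most of them act in the cytosol, and the list, labelled cytosolic in the plots, also holds Hspd1 and Hspe1 of the mitochondrion. The median response was -0.095 in control mice, with 16 of 20 negative, and -0.35 in knockout mice, with 20 of 20 negative. Knockout minus control, the list's median was 0.13 after saline and -0.066 after amphetamine. The saline groups thus stood further apart than the amphetamine groups. Hsph1, a nucleotide exchange factor of Hsp70, stood at 330.4, 332, 334, 324 and 222 CPM in saline and 325, 316, 276, 285 and 275 CPM in amphetamine control mice. In knockout mice it stood at 404, 344, 289.8, 338 and 353 CPM after saline and 261, 167, 242 and 243 CPM after amphetamine, without overlap. The difference was -0.53 ± 0.179 (adjusted p = 0.519 by edgeR).

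Ahsa1, which activates Hsp90, separated the knockout groups as well, at 124, 113, 128, 122 and 109 CPM after saline and 90.5, 86.8, 96.7 and 89.9 CPM after amphetamine. Its difference was -0.26 ± 0.0931. Hspd1 and Hspe1, the mitochondrial chaperonin and its partner, overlap in position (chromosome 1, 55116994 to 55127402 and chromosome 1, 55127291 to 55130466), so reads can be shared, and had differences of -0.25 and -0.37. That of Hspe1 was -0.21 without saline knockout mouse 3. A second list held chaperones of the endoplasmic reticulum together with Xbp1, Ddit3 and Herpud1, genes of the unfolded protein response that encode no chaperone. Of its 18 genes 14 lay below 0, 4 under an unadjusted p of 0.05, with a median of -0.14 and responses of -0.098 and -0.25. Knockout minus control, the median of this endoplasmic reticulum list was 0.13 after saline and -0.0017 after amphetamine. Hsp90b1, the Hsp90 of that compartment, stood at 515, 478, 497, 502 and 456 CPM in saline and 373, 368, 378 and 345 CPM in amphetamine knockout mice, also without overlap, and had a difference of -0.27 ± 0.0965. Xbp1, a transcription factor of the unfolded protein response, and the list members Creld2 and Sdf2l1 stood at -0.27, -0.38 and -0.43. Without the 5 mice apart Creld2 and Sdf2l1 stood at -0.12 and -0.13.

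The heat shock median lay between -0.21 and -0.15 over all 31 alternative settings, and was -0.18 without amphetamine knockout mice 2 and 3. The endoplasmic reticulum median was less steady, at -0.087 without amphetamine control mouse 1, -0.089 without saline knockout mouse 3, -0.096 without amphetamine knockout mouse 4 and -0.075 with the choroid plexus and fibroblast covariates. The summed level of the heat shock genes was 5742 to 6533 CPM in saline control and 6444 to 7116 CPM in saline knockout mice, against 5462 to 5878 CPM and 5128 to 5639 CPM after amphetamine. Saline knockout mice reached the highest and amphetamine knockout mice the lowest sum, and between genotypes the ranges overlapped.

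**Figure D5:**
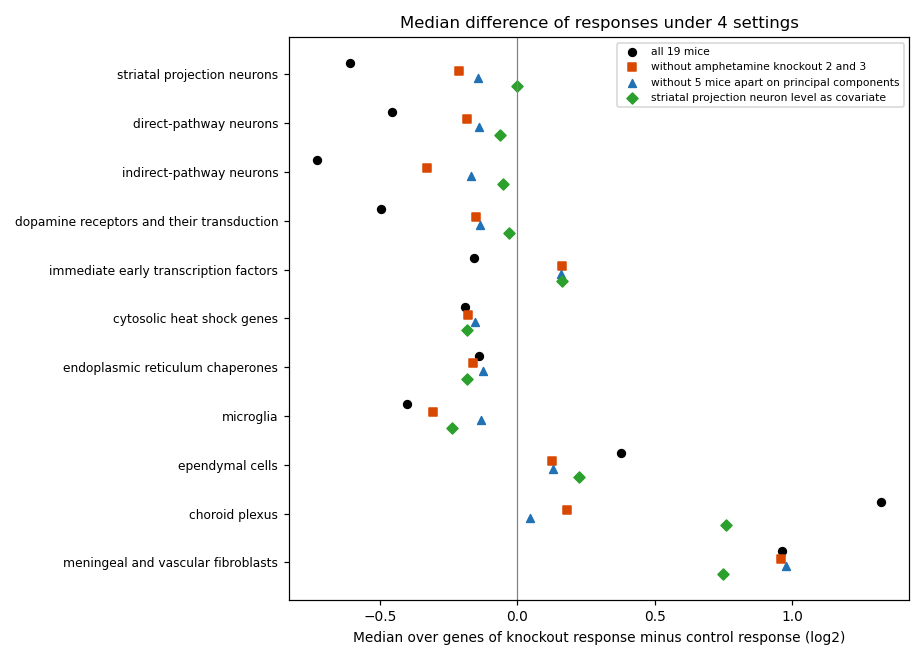
Median difference of responses (log2, x axis) of 11 gene lists with all 19 mice (black circles), without amphetamine knockout mice 2 and 3 (red squares), without 5 mice apart on principal components (blue triangles) and with the striatal projection neuron level as a covariate (green diamonds), which is near 0 for that list by construction. Neuronal and choroid plexus medians shrink or turn, while fibroblast (0.96 and 0.96) and heat shock medians (-0.19 and -0.18) stay close without mice 2 and 3.

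Microglial genes had 13 of 13 members below 0, 5 under an unadjusted p of 0.05, and a median of -0.40, with median responses of 0.26 in control and -0.13 in knockout mice. Knockout minus control, their median was 0.29 after saline and -0.11 after amphetamine. Tyrobp, the signalling adaptor of microglial receptors, stood at 14.1, 11.5, 17.4, 10.6 and 11.1 CPM in saline and 11.9, 10.1, 10.3 and 10.7 CPM in amphetamine knockout mice, which overlapped, and its difference was -0.50 ± 0.168. Ctss, a lysosomal protease, and C1qa, a complement chain, had differences of -0.50 and -0.53, and both were highest in saline knockout mouse 1, at 118 and 78.6 CPM. Without that mouse Ctss stood at -0.37 and C1qa at -0.29. Without the 5 mice apart the median of the list was -0.13 and Tyrobp stood at -0.25.

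Nuclear genes of the respiratory chain had 22 of 22 members below 0, 4 under an unadjusted p of 0.05, with a median of -0.19, and 30 of 32 cytosolic ribosomal protein genes lay below 0, with a median of -0.18. Both medians rested on saline knockout mouse 3 and were -0.069 and 0.011 without it. In that mouse Cox7c, a subunit of cytochrome oxidase, stood at 194 CPM and Ndufs4, a subunit of complex I, at 96.4 CPM, each above the other mice. Cox5a and Ndufa1 had differences of -0.34 and -0.43. Without that mouse the differences were -0.18 for Cox5a, -0.21 for Ndufa1, -0.18 for Cox7c and -0.16 for Ndufs4, against -0.39 and -0.31 for the last 2 with all mice. Knockout minus control with all mice, the ribosomal median was 0.22 after saline and 0.050 after amphetamine. That of the respiratory chain was 0.14 and -0.096. The 13 mitochondrially encoded transcripts had a median of -0.16, which was -0.32 without amphetamine control mouse 1 and -0.036 without amphetamine control mouse 5.

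Markers of tissue around the striatum had unequal responses as well. Pallidal and septal genes had 11 of 12 members above 0, with a median of 0.48. The median was 0.28 without amphetamine knockout mouse 2, 0.32 without amphetamine control mouse 3, 0.29 without amphetamine knockout mice 2 and 3, and 0.064 without the 5 mice apart. Zic2, a transcription factor of septal neurons, stood at 23.9, 22.1, 16.2, 21.95 and 19.8 CPM in amphetamine control and 31.3, 44.4, 38.8 and 25.2 CPM in amphetamine knockout mice, without overlap, and had a difference of 0.82 ± 0.244. Dlk1, an imprinted ligand-like membrane protein, had one of 0.67 ± 0.297. These were 0.52 and 0.43 without amphetamine knockout mice 2 and 3. Hypothalamic genes had 13 of 14 above 0 and a median of 1.03, but 0 under an unadjusted p of 0.05. That median was 0.34 without amphetamine knockout mice 2 and 3, 0.22 without the 5 mice apart and -0.30 with the striatal projection neuron level as a covariate. Among them Hcrt, Ghrh and Sim1 had 0 counts in 2, 1 and 2 mice. Cortical projection neuron genes had positive responses in both genotypes, 0.65 and 0.92, and a median difference of 0.15 that was -0.33 without amphetamine knockout mouse 3. The summed cortical level was 1476 to 2391 CPM in saline control, 2489 to 3526 CPM in amphetamine control, 1483 to 2377 CPM in saline knockout and 1336 to 3739.7 CPM in amphetamine knockout mice.

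Clock genes had the same median response in both genotypes, 0.14 in control and 0.14 in knockout mice, and 9 of 18 differences lay on either side of 0. Dbp, a clock output factor, was the 1 member under an unadjusted p of 0.05, at 155, 135, 137, 144 and 148 CPM in amphetamine control and 111, 84.8, 91.7 and 128 CPM in amphetamine knockout mice, which did not overlap, with a difference of -0.53 ± 0.219, or -0.32 without amphetamine knockout mice 2 and 3. Glucocorticoid-induced genes had 15 of 18 differences above 0 and a median of 0.23, which was -0.26 without saline control mouse 5 and 0.51 without saline knockout mouse 1. Those mice had the highest levels of the list. Zbtb16, a factor induced by the hormone, stood at 51.6 CPM in the former, and Lcn2, lipocalin 2, at 124 CPM in the latter, against at most 4.91 CPM in any other mouse. Without those mice in turn the difference of Zbtb16 was 0.28, against 1.13 with all, and that of Lcn2 -2.18, against -6.37.

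A gene that passes in 1 genotype is not thereby different between them. Plcd4 (chromosome 1, 74582047 to 74606953), a phospholipase C, was the 1 gene called in control mice (0.00465%), where it fell by 0.65 on the log2 scale (adjusted p = 0.0099 by edgeR), and was not called in knockout mice. Plcd4 stood at 21.2, 23.7, 21.5, 22.1 and 20.6 CPM in saline and 14.01, 13.4, 13.8, 15.4 and 13.1 CPM in amphetamine control mice. In knockout mice it stood at 26.4, 19.6, 19.9, 20.8 and 18.02 CPM after saline and 15.3, 17.4, 15.7 and 14.6 CPM after amphetamine, again without overlap. The response in knockout mice was -0.41 and the difference 0.24 ± 0.130, with an adjusted p of 0.561 by edgeR. For Plcd4 the direction was shared, whereas Col6a2, the gene that passed in knockout mice, had the smallest p of all for the difference.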

How the data were processed

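RNA was sequenced from the striatum of 19 mice, and the groups were read from the sample titles. The authors deposited whole-number gene counts per mouse. Per the submitters' processing notes, the tools were FastQC 0.11.5, Trim Galore 0.5.0, STAR 2.6.0c, HTSeq 0.6.1p2, DESeq2 1.26.0s and R 3.6.1, with the build GRCm39. The annotation release and strand setting were not given in the sources used here. Reads of overlapping genes can thus be shared. The authors' deposited tables also hold FPKM values, a baseMean signal, log2 fold changes and p-values for pairwise comparisons. These gave gene symbols and GRCm39 coordinates (22901 genes), and a reference table of GRCm38 gave symbols alone for 25913 more, with 778 unnamed. All per-sample columns were matched to a mouse, leaving 0 unused.

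Counts were fitted in R 4.3.3 with edgeR 4.0.16 (filterByExpr, TMM, robust quasi-likelihood fit) as 4 group means over 19 libraries. The contrast was amphetamine minus saline in knockout mice, minus the same in control mice. P-values were adjusted by Benjamini-Hochberg over 21513 genes, and a gene was called under 0.05. Standard errors are the log2 difference over the root of F. Levels are TMM-scaled CPM, and log2 CPM has a prior count of 2. All log2 differences are from this fit unless another is named, and p-values weigh a difference against the spread between these mice. The fit was also run on simulated counts with planted changes in some genes. Those counts held no uneven tissue or outlying mice, so that run does not give the power in these data.

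Named genes are the 12 with the smallest p in each direction (mean of at least 1 CPM, no gene models), up to 4 per list by p, and 11 set genes. Of the genes under this rule 2 are not reported here. Which list members to name was decided with their values known. Overlap between groups is described for named genes only, and the share of all genes without overlap was not counted. The members and the 36 lists were chosen with earlier results of these data known. Alternatives were DESeq2 1.42.0, limma voom (limma 3.58.1), other scaling and filters, replicate blocks, tissue covariates and fewer mice. The settings without amphetamine knockout mice 2 and 3, and with choroid plexus and fibroblast or striatal neuron covariates, were added after seeing the data. No 2 libraries of a group were copies (smallest chi-square per degree of freedom 11.2).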

Additional observations from a re-analysis of the deposited data

Results flagged for a closer look

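The highest or lowest mouse of a group stood apart from the rest (a gap to the nearest mouse that was large against the range of the group, by Dixon's 95% critical value) in 34 of 340 pairs of a gene and a group, and in 19 of 144 pairs of a gene list and a group. Chance alone flags about 1 pair in 20. No explanation was tested.

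Saline control mouse 5 was high in Zfp185, at 2.49 CPM against 1.21 to 1.46 in the rest of its group, in Tsku, at 3.24 against 2.19 to 2.49, and in Zbtb16, at 51.6 against 7.68 to 12.1. The same mouse was low in C1galt1c1, at 20.8 CPM against 25.02 to 26.2 in the rest of its group, in Mterf2, at 13.3 against 17.1 to 18.01, in Has1, at 0.572 against 1.31 to 1.43, in Hsph1, at 222 against 324 to 334, and in Creld2, at 9.42 against 14.01 to 15.7. Cytosolic heat shock genes stood low in saline control mouse 5, at a mean log2 CPM of 6.48 against 6.71 to 6.78. Glucocorticoid-induced genes stood high there, at a mean log2 CPM of 6.20 against 4.17 to 4.58. Microglial genes stood low there, at a mean log2 CPM of 4.36 against 4.81 to 4.98. Phospholipase C genes stood low there, at a mean log2 CPM of 4.60 against 4.71 to 4.73. Saline knockout mouse 3 was high in Rgs2, at 193 CPM against 130.1 to 146 in the rest of its group, in Hspe1, at 104 against 63.4 to 72.9, in Ndufs4, at 96.4 against 59.9 to 66.8, in Ndufa1, at 66.2 against 33.7 to 40.7, and in Cox7c, at 194 against 102 to 121. Glutamate receptor subunits stood low in saline knockout mouse 3, at a mean log2 CPM of 5.92 against 6.31 to 6.39. Genes of oligodendrocyte precursors stood low there, at a mean log2 CPM of 5.13 against 5.30 to 5.34. Fibroblast genes stood low there, at a mean log2 CPM of 2.12 against 3.04 to 3.41. Cytosolic ribosomal proteins stood high there, at a mean log2 CPM of 8.51 against 7.71 to 7.85.

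Amphetamine knockout mouse 2 was high in Folr1, at 3.70 CPM against 0.243 to 0.586 in the rest of its group, in F5, at 5.96 against 0.5999 to 0.828, in Calml4, at 2.13 against 0.740 to 0.963, and in Ttr, at 596 against 1.81 to 3.74. The same mouse was low in Creld2, at 9.88 CPM against 12.4 to 12.7 in the rest of its group. Choroid plexus genes stood high in amphetamine knockout mouse 2, at a mean log2 CPM of 3.80 against 1.07 to 1.43. Saline knockout mouse 1 was high in Zfp185, at 1.59 CPM against 0.777 to 0.990 in the rest of its group, in Ptgs2, at 14.96 against 3.68 to 6.23, and in Lcn2, at 124 against 0.163 to 3.07. The same mouse was low in Slc18a3, at 8.62 CPM against 10.1 to 10.4 in the rest of its group. Glucocorticoid-induced genes stood high in saline knockout mouse 1, at a mean log2 CPM of 6.28 against 4.41 to 4.75. Saline knockout mouse 4 was low in Drd1, at 104 CPM against 163 to 181 in the rest of its group, and in Spry2, at 38.6 against 46.6 to 49.8. Genes of striatal projection neurons stood low in saline knockout mouse 4, at a mean log2 CPM of 7.70 against 8.26 to 8.42. Interferon-induced genes stood high there, at a mean log2 CPM of 3.28 against 2.14 to 2.43. Thalamic genes stood high there, at a mean log2 CPM of 3.23 against 3.10 to 3.12.

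Amphetamine control mouse 3 was low in Slc18a3, at 3.68 CPM against 8.12 to 9.59 in the rest of its group, and in Tmem212, at 0.443 against 1.33 to 1.60. Cholinergic neuron markers stood low in amphetamine control mouse 3, at a mean log2 CPM of 3.05 against 3.92 to 4.19. Pallidal and septal genes stood low there, at a mean log2 CPM of 3.26 against 4.07 to 4.32. Ependymal genes stood low there, at a mean log2 CPM of 0.366 against 1.18 to 1.33. Amphetamine knockout mouse 3 was high in Ttc28, at 28.8 CPM against 19.5 to 19.97 in the rest of its group. The same mouse was low in Mterf2, at 14.3 CPM against 17.7 to 18.1 in the rest of its group, and in Slc18a3, at 2.13 against 8.15 to 9.06. Amphetamine control mouse 1 was low in Npas4, at 14.6 CPM against 20.8 to 22.9 in the rest of its group. Endoplasmic reticulum chaperones stood high in amphetamine control mouse 1, at a mean log2 CPM of 6.33 against 6.19 to 6.22. Amphetamine control mouse 5 was high in Lcn2, at 4.91 CPM against 0.0542 to 0.364 in the rest of its group. Glucocorticoid-induced genes stood high in amphetamine control mouse 5, at a mean log2 CPM of 4.95 against 4.35 to 4.49. Saline knockout mouse 2 was high in Slc5a7, at 57.3 CPM against 47.9 to 50.1 in the rest of its group. Saline control mouse 4 was high in Crh, at 10.6 CPM against 6.83 to 7.56 in the rest of its group. Amphetamine control mouse 4 was high in Ttr, at 24.5 CPM against 1.16 to 1.51 in the rest of its group. Linker histone genes stood high in saline control mouse 2, at a mean log2 CPM of 2.70 against 1.83 to 2.06.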

How the results depend on the processing

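The count of genes called was 0 under 30 of 31 alternatives, including the fits without each mouse in turn (0 to 0) and limma voom, and 14 by DESeq2. Genes under an unadjusted p of 0.05 numbered 1991 (9.25% of those tested) with all mice. On leaving out single mice they numbered 1340 (6.15%, without amphetamine knockout mouse 2) to 2438 (11.4%, without saline knockout mouse 4). They numbered 763 (3.42%) without amphetamine knockout mice 2 and 3 and 933 (4.23%) without the 5 mice apart on principal components. With ependymal, cortical and pallidal-septal covariates they numbered 1494 (6.94%). With the striatal projection neuron covariate they numbered 554 (2.58%), and with the choroid plexus and fibroblast covariates 354 (1.65%). In both fits without several mice and in these last 2 covariate fits, the share fell below the cut itself. Without a filter on low counts there were 2933 of 38077 genes (7.7%), and with a mean of at least 1 CPM 1410 of 15225 (9.26%). The covariates share variation with the groups, and fewer mice give less precision. Of 2599 values for 84 named genes, 2538 kept their direction and side, 12 became called (all by DESeq2) and 49 turned sign, and 69 genes never turned. Of 1116 list medians 50 moved by more than 1 SD between mice. The median SE of the difference over all genes was 0.214, and a gene near 1 CPM rested on about 57 counts in the smallest library.

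Replicate numbers name the mice and are not said to pair them, so they were not treated as pairs. Deviations from the group mean correlated over 0.1 in 1 of 27 same-numbered pairs by title number and 3 of 9 by description number. Pairs of unlike number were not compared, so these correlations do not decide whether the mice were paired. By description number the 3 were among the 4 knockout pairs (0.141, 0.141 and 0.197, the other 0.074), and 0 of 5 control pairs reached 0.1. A replicate block by title number called 0 genes (2075, or 9.65%, under an unadjusted p of 0.05) and by description number 0 (1956, or 9.09%).

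Without the 5 mice apart the sign turned for Chat (0.00157), Npas4 (0.40), Egr1 (0.32), Arc (0.33), Junb (0.080), Btg2 (0.094), Zbtb16 (-0.091) and Folr1 (-0.065). Without amphetamine knockout mice 2 and 3 the sign turned for Chat (0.14), Slc18a3 (0.084), Slc5a7 (0.029), Npas4 (0.24), Egr1 (0.24) and Arc (0.23). With the striatal covariate the sign turned for Chat (0.28), Slc18a3 (0.059), Slc5a7 (0.19), Npas4 (0.32), Egr1 (0.29) and Arc (0.28). By limma voom it turned for Fos (-0.039). With the replicate block by title number it turned for Fos (-0.040). With that by description number it turned for Fos (-0.12). With the ependymal, cortical and pallidal-septal covariates the sign turned for Npas4 (0.059) and Egr1 (0.00864). With the choroid plexus and fibroblast covariates the sign turned for Npas4 (0.53), Egr1 (0.44), Arc (0.45), Crem (0.065), Junb (0.24), Btg2 (0.094), Kcnj13 (-0.24), F5 (-0.40) and Ndufa1 (0.039). On leaving out single mice the difference ran for Chat from -0.32 to 0.26, Slc18a3 from -0.45 to 0.045, Slc5a7 from -0.39 to 0.11, Fos from -0.13 to 0.13, Npas4 from -0.34 to 0.037 and Egr1 from -0.37 to 0.012. The cause was not tested.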

Other observations

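Glutamate receptor subunits had a median of 0.022 over 22 genes, GABAergic interneuron genes 0.082 over 14, and cholesterol synthesis and uptake genes 0.015 over 22, with 0 of the last under an unadjusted p of 0.05. Astrocyte genes stood at 0.10 with 10 of 12 above 0, mature oligodendrocyte genes at -0.14 with 9 of 12 below 0, and oligodendrocyte precursor genes at 0.021 with 6 of 12 on either side. Endothelial and pericyte genes, which neighbour the fibroblasts of the vessel wall, did not share the direction of the fibroblast genes, with 10 of 13 below 0 and a median of -0.15. Thalamic genes stood at 0.30, at 0.18 without saline knockout mouse 3 and at 0.12 without the 5 mice apart on principal components. Blood cell genes stood at 0.35, at -0.036 without saline control mouse 2, at 1.00 without saline knockout mouse 3 and at 1.20 without the 5 mice apart. Other medians near 0 also moved with single mice, GABAergic interneuron genes from 0.019 without amphetamine knockout mouse 2 to 0.17 without amphetamine knockout mouse 4, and mature oligodendrocyte genes from -0.24 without saline knockout mouse 1 to 0.00227 without amphetamine knockout mouse 3. Linker histone genes stood at -0.062 over 6 genes and phospholipase C genes at 0.098 over 14. Interferon-induced genes stood at 0.036 over 15, and at 0.43 without saline knockout mouse 4.

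In the authors' deposited table of amphetamine against saline, Col6a2 had a log2 fold change of -0.058 in control mice and 0.75 in knockout mice, with adjusted p of 0.798 and 0.00022. In the authors' deposited table Spop had 0.25 in control mice (adjusted p = 0.000554) and -0.14 in knockout mice (adjusted p = 0.585). The authors' deposited tables compare 2 groups at a time and hold no difference of responses.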
